A study of Orbilia oligospora ATCC 24927 with 24 samples.

Results

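Untreated hyphae of a PkaC1 deletion strain were compared with untreated hyphae of the wild type in the nematode-trapping fungus Arthrobotrys oligospora, strain ATCC 24927. Of 11479 annotated genes, 8977 were compared. They are the genes with a name in the expression table whose level reached 1 TPM in at least 3 of 12 libraries, the whole of the PkaC1 experiment. TPM is a transcript abundance corrected for gene length and scaled to a fixed total per library. The series holds 24 RNA-seq libraries in 8 groups of 3, from 2 experiments that each have their own wild type. In each experiment both strains were sampled untreated (0 h by the sample titles) and 12 h after nematode extract was added to induce traps. The other experiment compared a deletion of AoAcy, named for adenylate cyclase, with its wild type. All strains were grown on potato dextrose agar at 28 °C. The groups compared here are the 3 untreated libraries of the AoPkaC1 deletion mutant, which carries no other allele by its labels, and the 3 untreated wild type libraries. The labels do not give the number of independent deletion clones.

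Cyclic AMP is made by adenylate cyclase, a membrane-bound enzyme that answers to nutrients and surface signals in fungi, and is broken down by phosphodiesterases. It binds the regulatory subunit of protein kinase A (PKA) and so frees the catalytic subunits, which phosphorylate metabolic enzymes and transcription factors. In yeasts and filamentous fungi the pathway governs growth on glucose, storage carbohydrates, stress resistance, sporulation and development, and in nematode-trapping fungi it is known for its part in trap formation.

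The wild type libraries lay very close together. Across genes, which are not independent replicates, they correlated at 0.99 to 0.991, the deletion libraries at 0.971 to 0.981, and libraries of different strains at 0.853 to 0.874. For genes of at least 1000 TPM, the coefficient of variation had a median of 1.63% in the untreated wild type and 16.8% in the untreated deletion. The median TPM of the compared genes was 22.7 to 22.8 in wild type and 24.7 to 29.8 in deletion libraries, with deletion library 1 the highest. Every library was therefore scaled to the same median before directions were judged. Values in TPM below are as deposited, fold changes are on the scale of log2(scaled TPM + 1), which understates changes of low genes, and ± is the standard error of a log2 fold change or the SD of a TPM mean, with n = 3 per group. Since TPM do not keep read counts, depth is unknown. Genes that every cell needs, such as the ribosome maturation factor AOL_s00097g296, are at an exact 0 in some libraries, so such genes are said only to be listed at 0. The design text of the series speaks of 3 biological replicates but names another mutant, and nothing in the sample labels says that the libraries came from separate cultures. The p-values then measure only the spread between these libraries, which may be technical. In bulk RNA, fewer cells of a type and less RNA per cell cannot be told apart. Of the hyphal markers, elongation factor 1-alpha (AOL_s00169g48) was at 3962 to 4019 TPM in wild type and 4501 to 6009 TPM in the deletion. After scaling its log2 fold change was only 0.12 ± 0.0803 (limma adjusted p = 0.206). Gamma actin (AOL_s00215g555) was at 864 to 880 and 1110 to 1618 TPM (0.35 ± 0.0709 after scaling). Alpha tubulin (AOL_s00215g247) averaged 255 and 461 TPM and beta tubulin (AOL_s00076g640) 193.7 and 341.7 TPM (0.60 ± 0.0774 and 0.56 ± 0.0722 after scaling). Chitin synthases, also markers, did not move together: AOL_s00210g143 averaged 103.5 and 24.9 TPM and AOL_s00079g31 9.95 and 26.8 TPM.

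Deletion of PkaC1 went with changes across most of the transcriptome of resting hyphae. Of the 8977 genes 62.8% were called at a limma adjusted p under 0.05, 2665 higher (29.7%) and 2971 lower (33.1%) in the deletion. On the TPM as deposited, without scaling, the split was 3652 higher (40.7%) and 2155 lower (24%), and the median change of all genes moved from -0.01 to 0.20 on the log2 scale. A change of 2-fold or more was called for 915 genes higher (10.2%) and 1066 lower (11.9%), and 309 and 331 genes changed 4-fold or more. Scaled levels did not overlap between the strains in 68.7% of genes. Of the 1981 genes called at 2-fold or more, 1977 have the same sign and 1922 an adjusted p under 0.05 in the authors' deposited table. With each wild type group of the experiment taken as 1 library, so that the spread comes from the deletion libraries alone, 3195 genes were called (15.7% higher and 19.9% lower), and 1775 of the 1981 kept their call. The counts of the gene lists below are to be read against these shares of all compared genes.

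**Figure D1:**
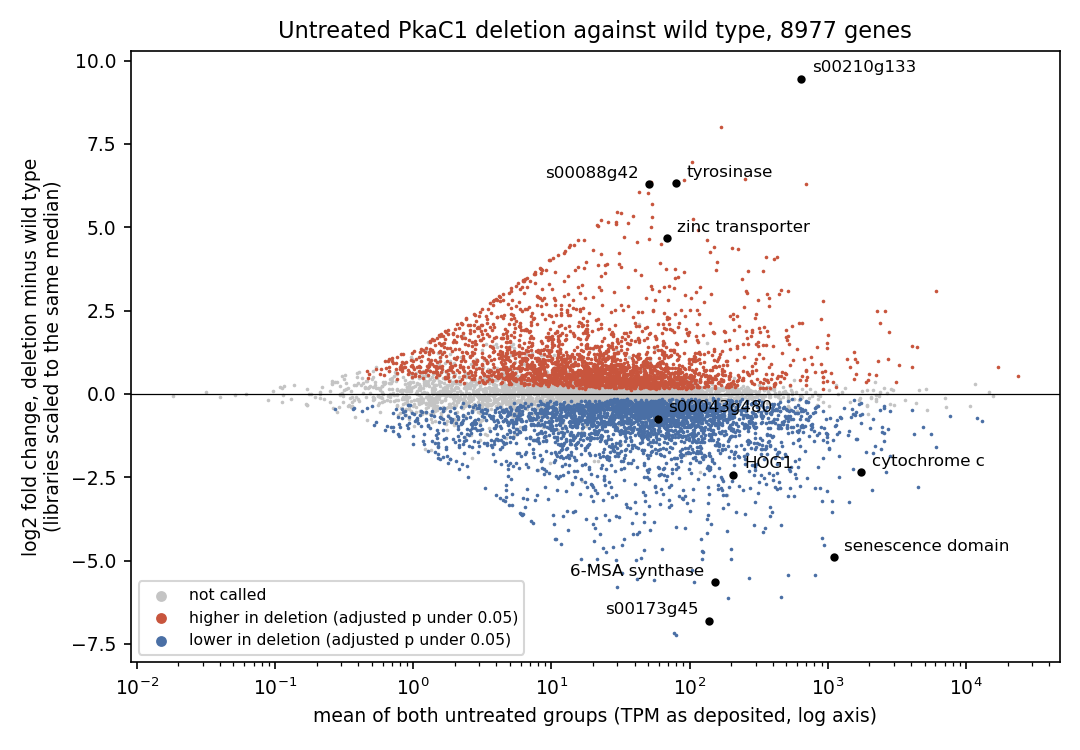
Change of each of the 8977 genes (vertical axis, log2 fold change of the deletion against wild type after scaling) against its mean level in both untreated groups (horizontal axis, TPM, log scale). Each point is a gene, red if called higher, blue if called lower and grey if not called; the points spread evenly about 0, with 915 genes called 2-fold or more higher and 1066 lower.

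The genes of the cAMP pathway were themselves changed, and most by the cAMP phosphodiesterase AOL_s00097g378. It stood at 163, 162 and 161 TPM in the wild type libraries and at 25.6, 21.8 and 18.8 TPM in the deletion libraries. Every deletion library was far below every wild type library (log2 fold change -3.05 ± 0.0751, limma adjusted p = 1.64e-10). A further phosphodiesterase, AOL_s00083g160, annotated after regA of the slime mould Dictyostelium, was at 59.7, 65.7 and 62.0 TPM against 40.9, 36.9 and 42.3 TPM (-0.86 ± 0.106, adjusted p = 3.5e-05). The PKA regulatory subunit AOL_s00075g84 was at 26.3, 25.2 and 26.3 TPM in wild type and 17.6, 15.99 and 15.8 TPM in the deletion (-0.84 ± 0.121, adjusted p = 0.000107). These 3 genes fell, with no overlap between the strains.

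Which locus carries the name AoPkaC1 is not stated in the labels, and both annotated catalytic kinases were still listed in every deletion library. AOL_s00043g480, annotated as a type 2 PKA, was at 69.8, 68.5 and 70.4 TPM in wild type and 53.1, 47.1 and 45.4 TPM in the deletion (-0.74 ± 0.0628, adjusted p = 1.59e-06). AOL_s00078g405, annotated as a catalytic subunit related to PRKX, was at 58.3, 56.1 and 56.8 TPM against 57.0, 48.8 and 47.9 TPM. Its groups overlap in deposited TPM but not after scaling. It was called lower after scaling (-0.39 ± 0.0681, adjusted p = 0.000495) but not on the deposited TPM (-0.16, adjusted p = 0.106). In the authors' deposited table the order of size is reversed, at -0.17 for AOL_s00043g480 and -0.50 for AOL_s00078g405. The labels were therefore not checked against a targeted transcript, and "the deletion" means the libraries labelled so.

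On the supply side, adenylate cyclase AOL_s00080g284 was at 14.8, 15.9 and 15.7 TPM in wild type and 26.4, 22.1 and 20.4 TPM in the deletion (0.31 ± 0.0738, adjusted p = 0.00354). The cyclase-associated protein AOL_s00109g42, which links the cyclase to Ras and actin in yeast, was at 62.0, 66.4 and 65.0 TPM against 100.6, 87.2 and 78.6 TPM (0.22 ± 0.0522, adjusted p = 0.00374). Both were higher in every deletion library, by a small margin after scaling. Neither call held with each wild type group as 1 library (adjusted p = 0.127 and 0.125).

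Storage carbohydrate genes showed the most uniform fall of the metabolic lists. All 10 genes matched to the trehalose and glycogen list were lower, 8 of them 2-fold or more, with a median log2 fold change of -1.66 against -0.01 over all compared genes. The 1,4-alpha-glucan-branching enzyme AOL_s00054g353, of glycogen synthesis, was not matched to this list and also fell (-2.43 ± 0.131). Glycogen synthase AOL_s00007g435, which builds the glucose polymer, was at 277.9, 278.1 and 275 TPM in wild type and 42.9, 45.7 and 45.02 TPM in the deletion (-2.84 ± 0.0841, adjusted p = 5.82e-10). Trehalose-phosphate synthase AOL_s00097g249, the first enzyme of trehalose synthesis, was at 430.3, 438 and 430.1 TPM against 101.9, 98.4 and 101.7 TPM (-2.32 ± 0.0688, adjusted p = 5.78e-10). In both genes the strains stand far apart and the replicates close together. Genes for breakdown fell too: glycogen phosphorylase AOL_s00109g17 went from 194.5 to 62.8 TPM on average (-1.86), neutral trehalase AOL_s00075g83 from 10.3 to 7.31 TPM (-0.65) and acid trehalase AOL_s00043g154 from 3.11 to 1.1 TPM (-1.06). Trehalose-phosphatase AOL_s00110g144, which completes trehalose, fell by 1.46 and the glycogen primer glycogenin AOL_s00054g323 by 0.68 on the log2 scale. The named genes of breakdown, the phosphatase and glycogenin lie outside the rule for named genes and were chosen after their values were seen.

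The respiratory chain, which passes electrons to oxygen in mitochondria, was lower along its whole length. Of 51 structural subunits 46 were called lower and 1 higher, with a median of -0.80 (-0.57 unscaled, 41 lower). By complex, the lower calls were 17 of 21 in complex I (NADH dehydrogenase), 4 of 4 in complex II, 7 of 7 in complex III, 6 of 6 in complex IV (cytochrome c oxidase) and 12 of 13 in the ATP synthase. Their medians were -0.74, -1.09, -1.09, -1.26 and -0.64. Cytochrome c oxidase polypeptide 5 (AOL_s00169g9) was at 338, 326.5 and 351.1 TPM in wild type and 108.2, 100.7 and 121.6 TPM in the deletion (-1.85 ± 0.0973, adjusted p = 3.53e-08). The mobile carrier cytochrome c (AOL_s00081g186) was at 2756, 2828 and 2930 TPM against 664, 689 and 617 TPM (-2.34 ± 0.0794, adjusted p = 1.35e-09). Cytochrome c thus had a larger fall than any complex by its median. The alternative oxidase AOL_s00080g303, which bypasses complexes III and IV, was at 273.8, 274.1 and 274.6 TPM in wild type and 339.8, 486.1 and 482 TPM in the deletion. Its deposited levels did not overlap, but its scaled levels did, and the change missed the threshold (0.41 ± 0.176, adjusted p = 0.0598). It passed on deposited TPM (0.65, adjusted p = 0.000819), with the replicate block (0.41, adjusted p = 0.0373) and without deletion replicate 1 (0.66, adjusted p = 0.000212). The 1 subunit called higher, AOL_s00054g688 of complex I, is listed at 0 in all 3 wild type libraries and at 0, 3.84 and 4.78 TPM in the deletion, and it lost its call with each wild type group as 1 library (adjusted p = 0.236), with only the 6 untreated libraries fitted (0.0841) and without deletion replicate 2 or 3 (0.0689 and 0.0685).

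Carbon metabolism that feeds the chain fell with it. In the tricarboxylic acid cycle 15 of 19 genes were lower and 1 higher (median -0.75, unscaled -0.51). Mitochondrial malate dehydrogenase AOL_s00210g140 was at 598, 605 and 608 TPM in wild type and 242.6, 226.9 and 204.6 TPM in the deletion (-1.66 ± 0.0479, adjusted p = 4.65e-10). The iron-sulfur subunit of succinate dehydrogenase AOL_s00054g737, shared with complex II, was at 133.8, 126.4 and 125.6 TPM against 45.1, 54.8 and 42.5 TPM (-1.65 ± 0.101). Neither gene overlapped between strains. Aconitase AOL_s00054g496 (-1.44), citrate synthase AOL_s00079g361 (-1.27) and the subunits of NAD-dependent isocitrate dehydrogenase AOL_s00109g30 (-1.52) and AOL_s00054g941 (-1.47), chosen after their values were seen, were each called lower. The 1 member called higher was dihydrolipoyl dehydrogenase AOL_s00054g616, a subunit of several 2-oxoacid dehydrogenases, at 324.9, 326.9 and 322.4 TPM against 490.5, 554.9 and 557.9 TPM (0.48 ± 0.0985, adjusted p = 0.00137), a call lost with each wild type group as 1 library (adjusted p = 0.0991).

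The glyoxylate cycle and gluconeogenesis, used for growth on fats and small carbon compounds, had 6 of 7 genes lower and 1 higher (median -0.94). Isocitrate lyase AOL_s00075g130 was at 235.5, 233.1 and 238.2 TPM in wild type and 93.3, 95.9 and 69.4 TPM in the deletion (-1.68 ± 0.0924). Malate synthase AOL_s00112g112, the other enzyme specific to the cycle, was at 228, 220.1 and 212.2 TPM against 82.8, 107.1 and 95.2 TPM (-1.44 ± 0.122). The exception was pyruvate carboxylase AOL_s00054g909, which makes oxaloacetate from pyruvate, at 432, 434 and 412 TPM against 1215, 1065 and 955 TPM (1.10 ± 0.0519, adjusted p = 1.52e-08). All 3 genes separated the strains, and pyruvate carboxylase in the opposite direction to the others.

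Glycolysis was lower in 11 of 14 genes and higher in 1 (median -0.53, unscaled -0.30 with 9 lower). The 1 called higher, AOL_s00188g308, is annotated after the uncharacterized protein C1A6.01c and not as a glycolytic enzyme (0.43 ± 0.0911, adjusted p = 0.00169). Its call was lost with each wild type group as 1 library. Phosphoglycerate kinase AOL_s00006g198 was at 1344, 1366 and 1334 TPM in wild type and 293, 365 and 385 TPM in the deletion (-2.19 ± 0.136, adjusted p = 1.29e-07). Enolase AOL_s00054g899 was at 1136, 1102 and 1110 TPM against 532, 557 and 573 TPM (-1.24 ± 0.0859, adjusted p = 3.05e-07). Glyceraldehyde-3-phosphate dehydrogenase AOL_s00169g10, named after its values were seen and the most abundant transcript of the list, was at 7320, 7352 and 7420 TPM against 3060, 4113 and 4240 TPM (-1.20 ± 0.166, adjusted p = 7.98e-05). Glucokinase AOL_s00004g632 (-0.44) and phosphofructokinase AOL_s00043g22 (-0.20), which act early in the pathway, fell less.

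**Figure D2:**
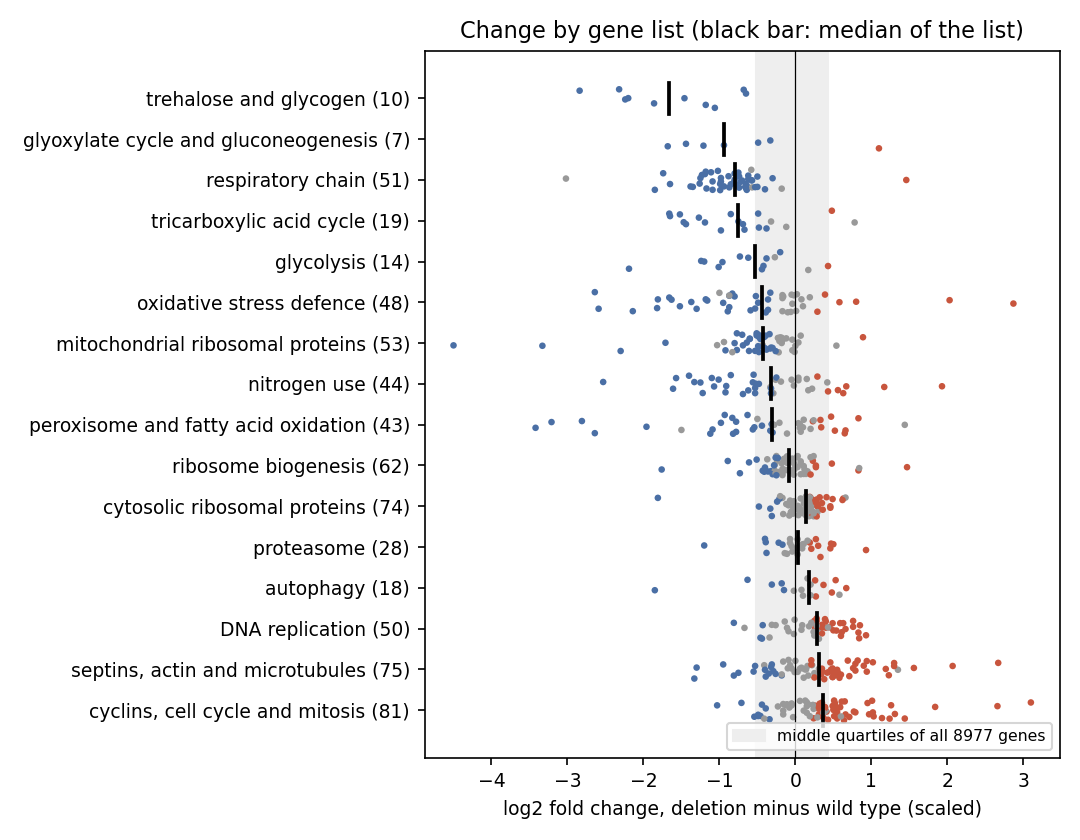
Log2 fold change of the deletion against wild type (horizontal axis, scaled libraries) for the tested members of 16 gene lists, with the number of members in brackets. Each point is a gene, red if called higher, blue if called lower and grey if not called; black bars are list medians, from -1.66 for trehalose and glycogen to 0.37 for cyclins, cell cycle and mitosis, and the grey band spans the middle quartiles of all 8977 genes.

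Named kinases of the osmotic and oxidative stress cascade, which in yeast passes its signal from PBS2 to HOG1, were lower in the deletion; the cascade was not a gene list, and other members were not counted. HOG1 (AOL_s00109g23) was at 335, 343.2 and 345.2 TPM in wild type and 76.0, 75.2 and 70.6 TPM in the deletion (-2.42 ± 0.0627, adjusted p = 2.5e-10). Its activator PBS2 (AOL_s00097g443), named after its values were seen, was at 34.9, 39.1 and 41.2 TPM against 12.3, 12.98 and 8.71 TPM (-1.89 ± 0.116, adjusted p = 1.11e-07). The kinase AOL_s00080g218, annotated after srk1, which lies below the stress-activated kinase in fission yeast, was at 543.6, 525.4 and 544.9 TPM against 92.8, 129.5 and 129.8 TPM (-2.43 ± 0.155, adjusted p = 1.53e-07). All 3 fell without overlap. Upstream, the sensor kinase AOL_s00117g36, annotated after mak1 of fission yeast and also chosen after its values were seen, went from 347.9, 343.9 and 368.3 TPM to 84.5, 157.3 and 174.7 TPM (-1.64 ± 0.258). Of 108 protein kinases other than PKA, 47 were higher (43.5%, against 29.7% of all compared genes) and 29 lower (26.9%, against 33.1%), with a median of 0.13. With each wild type group as 1 library 30 were higher and 14 lower. The largest kinase increase was in IRE1a (AOL_s00169g270), a sensor of unfolded protein in the endoplasmic reticulum, at 2.11, 2.14 and 2.58 TPM against 27.6, 25.9 and 25.5 TPM (2.81 ± 0.103).

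Oxidative stress defence was lower in 26 of 48 genes and higher in 6 (median -0.44; 21 lower and 11 higher unscaled). Peroxisomal catalase AOL_s00006g411, which breaks down hydrogen peroxide, was at 31.2, 29.7 and 29.4 TPM in wild type and 3.63, 4.37 and 5.97 TPM in the deletion (-2.64 ± 0.155). Glutathione S-transferase AOL_s00006g95 was at 114.6, 113.8 and 114.5 TPM against 19.2, 21.7 and 23.2 TPM (-2.59 ± 0.114). Mitochondrial manganese superoxide dismutase AOL_s00054g687 (-1.81) and a further catalase, AOL_s00173g374 (-1.82), both chosen after their values were seen, were called lower. Against this direction, the cell surface superoxide dismutase SOD4 (AOL_s00173g103) was at 17.2, 22.0 and 21.1 TPM against 239.9, 160.4 and 151.4 TPM (2.87 ± 0.244), and mitochondrial peroxiredoxin PRX1 (AOL_s00215g326) rose by 2.03 ± 0.135. Peroxisome and fatty acid oxidation genes were lower in 21 of 43 and higher in 8 (median -0.31; 15 and 12 unscaled). The peroxisomal acyl-CoA ligase AOL_s00081g341 was at 314.7, 308 and 314.8 TPM against 46.0, 25.9 and 30.8 TPM (-3.42 ± 0.137). It separated the strains clearly, as did the adenine nucleotide transporter AOL_s00043g607 of the peroxisomal membrane (-3.21 ± 0.158). Heat shock proteins and chaperones had 18 of 63 higher and 24 lower, and on deposited TPM 30 higher and 18 lower, so the list has no direction that stands under both scalings. Its lower genes include the vacuolar transporter chaperone subunits AOL_s00080g366 (-2.07) and AOL_s00188g78 (-1.43), which are not named as heat shock proteins.

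Genes of cell division and the cytoskeleton leaned higher. Of 81 genes for cyclins, the cell cycle and mitosis 47 were higher and 9 lower (median 0.37), with 23 and 4 when each wild type group was 1 library. Of 50 DNA replication genes 25 were higher and 4 lower (median 0.28; 8 and 1 with wild type as 1 library), and none of the 50 changed 2-fold. Of 75 genes for septins, actin and microtubules 39 were higher and 15 lower (median 0.31; 21 and 6 with wild type as 1 library). These 3 lists lean the same way on deposited TPM, but there the median of all genes also moved up, from -0.01 to 0.20. That setting therefore could not have turned their direction. Among its lower genes the replication list also counts MCM1 (AOL_s00112g128, -0.43), named as a transcription factor of morphogenesis, which was not called on deposited TPM. The septins, which form rings and collars at septa and growing tips, went together: spn1 (AOL_s00215g893) was at 6.46, 3.86 and 4.42 TPM in wild type and 38.4, 26.7 and 21.0 TPM in the deletion (2.07 ± 0.295, adjusted p = 0.000101). Its partners, chosen after their values were seen, were called higher as well: spn2 (AOL_s00188g32) by 1.30 ± 0.0761, spn3 (AOL_s00112g7) by 0.94 ± 0.143 and spn4 (AOL_s00007g461) by 0.47 ± 0.0842, the last losing its call with wild type as 1 library (adjusted p = 0.0631). The cyclin AOL_s00078g9, annotated after the PHO85 cyclins that act in phosphate and cell cycle control in yeast, was at 94.5, 79.5 and 99.1 TPM against 1111, 838 and 845 TPM (3.10 ± 0.269, adjusted p = 1.96e-06). Cyclin B (AOL_s00006g163), which drives entry into mitosis, was also higher (1.14 ± 0.0979) and was chosen after its values were seen. Opposite to these, cofilin AOL_s00006g152, which severs actin filaments, was at 22.2, 13.4 and 10.9 TPM against 6.63, 8.73 and 3.96 TPM (-1.33 ± 0.303); this call was lost with wild type as 1 library (adjusted p = 0.0639).

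Among translation genes, mitochondrial ribosomal proteins leaned lower after scaling, with 62.3% called lower against 33.1% of all compared genes. Cytosolic ones showed no opposite lean beyond the background, at 24.3% higher and 8.11% lower against 29.7% and 33.1%. On deposited TPM 24% of all compared genes were called lower, and the mitochondrial median was -0.22. Mitochondrial ribosomal proteins were lower in 33 of 53 genes and higher in 1 (median -0.43); 14 were lower unscaled and 16 with wild type as 1 library. Cytosolic ribosomal proteins were mostly not called, with 18 of 74 higher and 6 lower (median 0.14), 40 and 1 unscaled and 2 and 1 with wild type as 1 library. The mitochondrial protein L4 (AOL_s00079g14) was at 26.1, 21.1 and 23.3 TPM in wild type and is listed at 0 in all 3 deletion libraries, as is mitochondrial L17 (AOL_s00043g521), at 11.2, 14.1 and 5.83 TPM in wild type. Ribosome biogenesis had 7 of 62 higher and 15 lower, and 10 higher and 4 lower unscaled. Proteasome genes had 9 of 28 higher and 6 lower, and autophagy genes 6 of 18 higher and 5 lower (14 and 1, and 12 and 2, unscaled). Autophagy, at 33.3% and 27.8%, lay near the shares of all compared genes.

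Of 224 transcription factors 73 were higher (32.6%) and 84 lower (37.5%), near the shares of all compared genes (29.7% and 33.1%), and 98 and 60 on deposited TPM. NRG1 (AOL_s00006g96), a repressor of glucose-regulated and filamentation genes in yeasts, was at 149.9, 133.7 and 160 TPM in wild type and 23.1, 22.9 and 14.7 TPM in the deletion (-3.05 ± 0.175, adjusted p = 6.91e-08). AOL_s00083g275, annotated after the arabinose regulator ARA1, was at 44.1, 47.2 and 44.96 TPM against 3.9, 2.36 and 3.25 TPM (-3.64 ± 0.143). Both fell without overlap. The C2H2 factor AOL_s00097g514 carries the Swiss-Prot name of brlA, the regulator that starts conidiophore development in Aspergillus, while its KEGG name differs. It was at 2.59, 2.4 and 3.41 TPM in wild type and 37.2, 31.8 and 28.2 TPM in the deletion (2.88 ± 0.152, adjusted p = 3.5e-08), with every deletion library above every wild type library. Genes annotated after factors that follow brlA in Aspergillus, chosen after their values were seen, did not share this size of change: abaA (AOL_s00080g63) was at 322.7, 323.1 and 348.9 TPM against 172.2, 222.3 and 245.2 TPM (-0.88 ± 0.193) and wetA (AOL_s00173g221) at 2.94, 3.41 and 3.49 TPM against 7.04, 6.37 and 4.98 TPM (0.52 ± 0.116). Both lost their calls with wild type as 1 library (adjusted p = 0.107 and 0.0877).

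Conidiation and rodlet genes had 8 of 18 higher (44.4%, against 29.7% of all compared genes) and 5 lower (27.8%, against 33.1%), with a median of 0.25, and 4 and 3 with wild type as 1 library. The rodlet protein AOL_s00006g570, a coat protein of conidia, was at 0, 0.81 and 0 TPM in wild type and 13.2, 12.6 and 13.1 TPM in the deletion (3.22 ± 0.433, adjusted p = 6.61e-05). Of the 3 conidiation-specific proteins of the list, AOL_s00007g374 was below 4 TPM in all 6 libraries and AOL_s00081g178 averaged 0.437 and 0.673 TPM, while AOL_s00079g472 averaged 21.2 and 24.2 TPM. Whether the deletion cultures held more conidia was not tested. A glucose-repressible protein, AOL_s00004g152, was at 1632, 1777 and 1705 TPM in wild type and 60.5, 123.7 and 126.6 TPM in the deletion (-4.33 ± 0.301, adjusted p = 3.19e-07).

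Tyrosinases and polyphenol oxidases, copper enzymes that oxidise phenols on the way to melanin and quinones, had 7 of 13 higher and 3 lower (median 0.60). Tyrosinase AOL_s00215g501 was at 0.49, 0.67 and 0.65 TPM in wild type and 189.9, 141.3 and 144.5 TPM in the deletion (6.32 ± 0.126, adjusted p = 4.38e-11). Tyrosinase AOL_s00054g968 was at 27.1, 26.7 and 28.3 TPM against 301.7, 191.7 and 192.4 TPM (2.75 ± 0.101, adjusted p = 2.32e-09). Each was higher in all 3 deletion libraries, with library 1 the highest. The neighbouring tyrosinases AOL_s00083g37 (1.57 ± 0.0821) and AOL_s00083g38 (1.09 ± 0.109), chosen after their values were seen, also rose. Not all members of the list followed. Tyrosinase AOL_s00043g366 fell, from 145.6, 143.6 and 147.2 TPM to 108.5, 97.0 and 77.1 TPM (-0.87 ± 0.0916). Laccase AOL_s00173g61 was at 52.8, 55.2 and 49.4 TPM against 6.67, 6.99 and 5.84 TPM (-3.02 ± 0.0943).

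**Figure D3:**
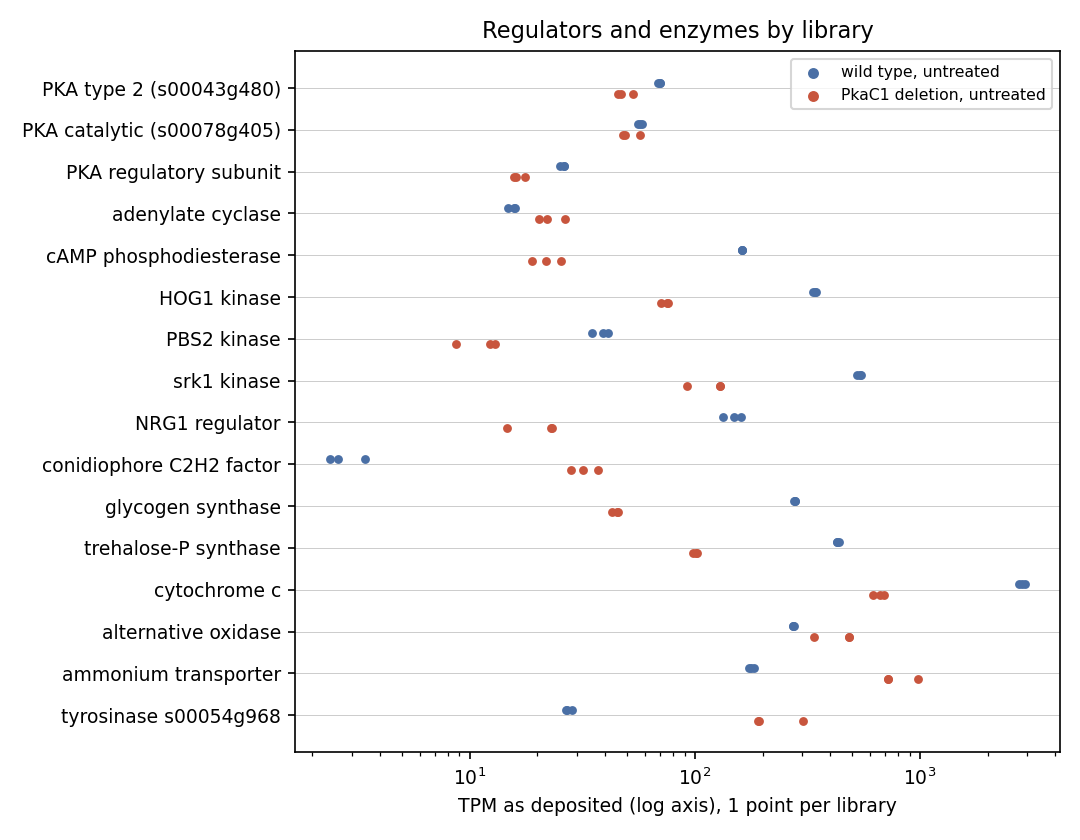
Level of 16 regulators and enzymes in each untreated library (horizontal axis, TPM as deposited, log scale), with 1 point per library, blue for wild type and red for the deletion. HOG1 stands at 335 to 345 TPM in wild type and 70.6 to 76.0 TPM in the deletion, and the conidiophore C2H2 factor at 2.4 to 3.41 and 28.2 to 37.2 TPM; the wild type points nearly coincide in most rows.

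At the cell surface, chitinases, glucanases and chitin synthases had 34 of 80 higher and 23 lower (20 and 15 with wild type as 1 library). By its name this list also counts the 1,4-alpha-glucan-branching enzyme AOL_s00054g353 (-2.43), a gene of glycogen synthesis, as lower. Glucan 1,3-beta-glucosidase AOL_s00076g481 was at 297, 286.8 and 285.7 TPM in wild type and 46.8, 46.5 and 47.8 TPM in the deletion (-2.82 ± 0.0795). The chitin synthases did not move as a block, as chitin synthase D (AOL_s00210g143) fell by 2.26 ± 0.186 and chitin synthase 2 (AOL_s00079g31) rose by 1.09 ± 0.12 on the log2 scale, both chosen after their values were seen. Lectins, WSC, CFEM and other surface proteins had 20 of 63 higher (31.7%) and 24 lower (38.1%), near the shares of all compared genes, and 26 and 20 unscaled. Members with WSC domains, found in cell wall sensors and adhesive proteins of fungi, gave large increases: AOL_s00080g412 was at 8.56, 7.51 and 7.77 TPM against 275.2, 250.3 and 256.8 TPM (4.63 ± 0.127, adjusted p = 3.63e-10), and AOL_s00043g388 at 5.05, 3.71 and 3.0 TPM against 93.7, 63.0 and 71.6 TPM (3.72 ± 0.151). The abundant ricin-type lectin AOL_s00043g240 went the other way, from 4254, 4177 and 4201 TPM to 1576, 1437 and 1123 TPM (-1.86 ± 0.0825). Secreted peptidases had 24 of 112 higher and 45 lower (median -0.17), but 33 and 35 unscaled with a median of 0.04. The aspartic protease domain protein AOL_s00007g136 was at 0.91, 0.43 and 0.72 TPM against 106.9, 104.8 and 108.4 TPM (5.71 ± 0.233). Leucine aminopeptidase AOL_s00110g315 was at 303.4, 304 and 304.4 TPM against 61.3, 44.3 and 28.8 TPM (-3.02 ± 0.175). The cuticle-degrading serine protease AOL_s00076g4, of the family that attacks nematode cuticle and chosen after its values were seen, went from 129.4, 129.8 and 121 TPM to 54.2, 28.5 and 17.8 TPM (-2.25 ± 0.309).

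Nutrient transporters had 34 of 118 higher and 44 lower after scaling and 50 higher and 32 lower without it, so the list has no direction that stands under both. The zinc transporter AOL_s00215g488, which imports zinc when it is scarce in yeast, was at 2.97, 4.63 and 2.76 TPM in wild type and 127.2, 132.1 and 141.1 TPM in the deletion (4.68 ± 0.164, adjusted p = 1.74e-09). The ammonium transporter MEP2 (AOL_s00043g163), also a nitrogen sensor in yeast, was at 174.2, 177.9 and 182.4 TPM against 984.6, 723.4 and 724.8 TPM (1.93 ± 0.0873, adjusted p = 1.05e-08). Both were higher in every deletion library. By contrast the amino acid permease GAP1 (AOL_s00170g65), chosen after its values were seen, went from 159, 158.3 and 151 TPM to 22.3, 20.5 and 17.1 TPM (-3.13 ± 0.111). Nitrogen use as a list was lower in 24 of 44 genes and higher in 7 (median -0.33; 20 and 12 unscaled), with the purine regulator AOL_s00078g533 at 19.9, 19.1 and 19.6 TPM against 2.82, 3.34 and 2.62 TPM (-2.53 ± 0.136). Its neighbour by locus number, the acetate activator acu-15 (AOL_s00078g534), fell to a like degree (-2.70 ± 0.105), and uricase AOL_s00097g623 fell less (-1.57 ± 0.123). Both acu-15 and uricase were chosen after their values were seen.

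A block of neighbouring genes on scaffold s00215 was much lower in the deletion. It holds a 6-methylsalicylic acid synthase, a polyketide synthase known in this fungus for the arthrosporol family of metabolites, and its neighbours carry names of the yanuthone pathway of Aspergillus. Of the 10 genes from AOL_s00215g274 to AOL_s00215g283, 9 were lower, each 2-fold or more, with a median of -4.96. The synthase AOL_s00215g283 was at 292.8, 297.1 and 301.2 TPM in wild type and 7.18, 5.92 and 4.46 TPM in the deletion (-5.64 ± 0.0874, adjusted p = 1.66e-11). The decarboxylase AOL_s00215g281, which acts on 6-methylsalicylic acid, was at 234.7, 238.9 and 235.6 TPM against 11.3, 9.85 and 7.61 TPM (-4.70 ± 0.196). The cytochrome P450 AOL_s00215g282 was at 534.3, 526.9 and 526.2 TPM against 14.9, 13.1 and 9.58 TPM (-5.52 ± 0.128). All 3 dropped by more than 16-fold without overlap. The most abundant members that fell were the oxidoreductase AOL_s00215g277, at 1593, 1554 and 1556 TPM against 41.2, 47.2 and 36.2 TPM (-5.44 ± 0.122), and the prenyl transferase AOL_s00215g276, at 979.2, 1019 and 984.7 TPM against 37.3, 29.5 and 16.1 TPM (-5.42 ± 0.288).

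The exception inside the block was AOL_s00215g278, a cytochrome P450, at 1829, 1934 and 2074 TPM in wild type and 1592, 2348 and 2518 TPM in the deletion. Its libraries overlap and it was not called (-0.11 ± 0.195, adjusted p = 0.632), and the sign turns on deposited TPM (0.12). The authors' deposited table differs and lists it as lower (log2 fold change -1.35, adjusted p under 0.05). On one side the fall went on into AOL_s00215g273, a transferase, at 75.9, 75.2 and 89.1 TPM against 12.7, 10.5 and 10.7 TPM (-2.93 ± 0.144). On the other side AOL_s00215g284, a deubiquitinase by annotation and chosen after its values were seen, is listed at 0 in all 3 wild type libraries and at 21.8, 18.9 and 17.2 TPM in the deletion. The synthase stood at 155.3 TPM in induced wild type and 2.29 TPM in the induced deletion. In the Acy experiment, whose table was normalised separately, it averaged 14.3 ± 3.98 TPM in untreated wild type and 1.67 ± 0.319 TPM in the untreated Acy deletion, so its wild type level differed widely between the experiments.

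**Figure D4:**
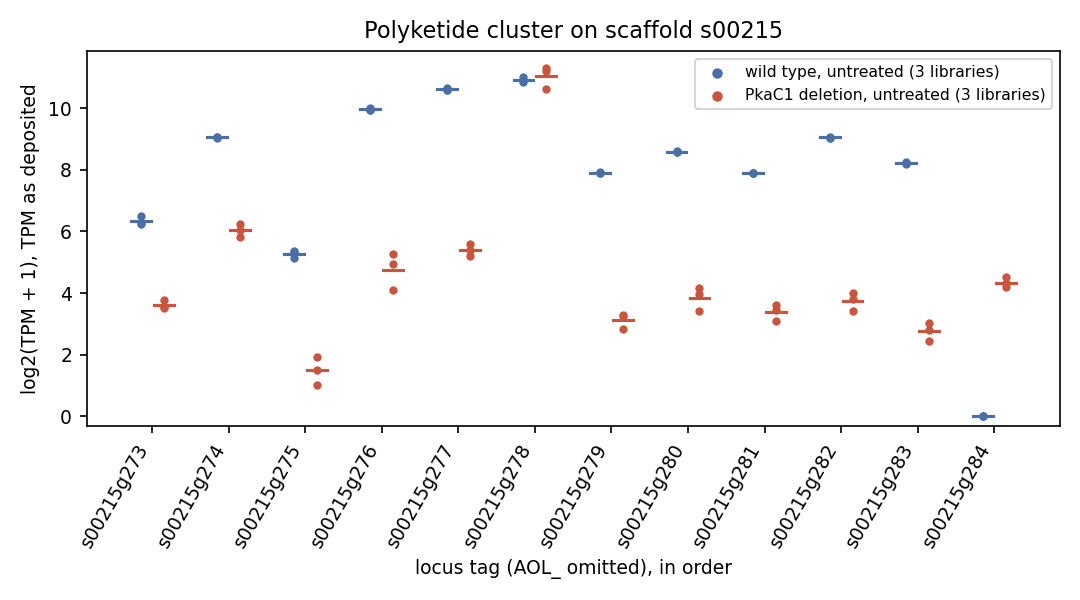
Level of 12 neighbouring genes on scaffold s00215 in each untreated library (vertical axis, log2(TPM + 1), TPM as deposited), in order of locus tag; points are libraries and short bars group means, blue for wild type and red for the deletion. All but AOL_s00215g278, which overlaps, and AOL_s00215g284, which is higher, sit lower in the deletion.

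In the opposite direction, a stretch of scaffold s00088, most of whose genes were at or near 0 in wild type, was higher in the deletion. From AOL_s00088g34 to AOL_s00088g48 all genes but AOL_s00088g38 were called 2-fold or more higher, in runs of 4 and 10 neighbours. Of these only AOL_s00088g42, with a C2H2 zinc finger domain, and AOL_s00088g46, with a chromodomain of the kind found in chromatin proteins, carry an annotation. AOL_s00088g42 was at 0, 0 and 0.06 TPM in wild type and 111.9, 95.0 and 96.7 TPM in the deletion (6.30 ± 0.173, adjusted p = 3.63e-10). AOL_s00088g35 is listed at 0 in all 3 wild type libraries and at 143.6, 89.1 and 84.7 TPM in the deletion. AOL_s00088g39, the member with the highest level in the deletion, was at 10.7, 10.5 and 10.3 TPM against 314.8, 276.3 and 274.6 TPM (4.41 ± 0.103, adjusted p = 1.24e-10). In these 3 genes every deletion library was far above every wild type library. Genes such as AOL_s00088g42 and AOL_s00088g35 reached 1 TPM only in the untreated deletion libraries. They passed the filter only through the group where they are high, so their calls are a description. Inside the stretch AOL_s00088g38 was at 19.8, 21.0 and 19.2 TPM against 19.7, 24.7 and 21.3 TPM and was not called (-0.10 ± 0.118, adjusted p = 0.481), a sign that turns on deposited TPM (0.12). Beyond the end, AOL_s00088g49 was below 1 TPM in all 6 libraries. At the far end of the stretch, AOL_s00088g47 and AOL_s00088g48 lost their calls with wild type as 1 library (adjusted p = 0.102 and 0.106). AOL_s00088g48, whose libraries overlap, also lost it with a pseudocount of 0.1 (adjusted p = 0.0851), with only the 6 untreated libraries fitted (0.0765) and without wild type replicate 1 or 2 or deletion replicate 1 or 2 (0.138, 0.0767, 0.0584 and 0.122). Apart from AOL_s00088g42 and AOL_s00088g46, genes of this stretch and those of the unannotated loci below that lie outside the longest runs were chosen after their values were seen.

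The same stretch was followed in the other groups. After induction AOL_s00088g42 averaged 0 TPM in wild type and 0.283 TPM in the deletion, and the effect of the deletion differed between the times by 5.84 on the log2 scale (limma interaction, adjusted p = 1.37e-08). Such a difference passed the test in 63.9% of all compared genes, and AOL_s00088g42 was chosen for its untreated change. In the Acy experiment, normalised separately, AOL_s00088g42 averaged 0.46 ± 0.215 TPM in untreated wild type and 187.3 ± 30.9 TPM in the untreated Acy deletion. AOL_s00088g34 averaged 0.94 ± 0.93 and 1779 ± 53.6 TPM there. In both experiments, then, these genes were higher in the untreated deletion than in its own wild type.

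**Figure D5:**
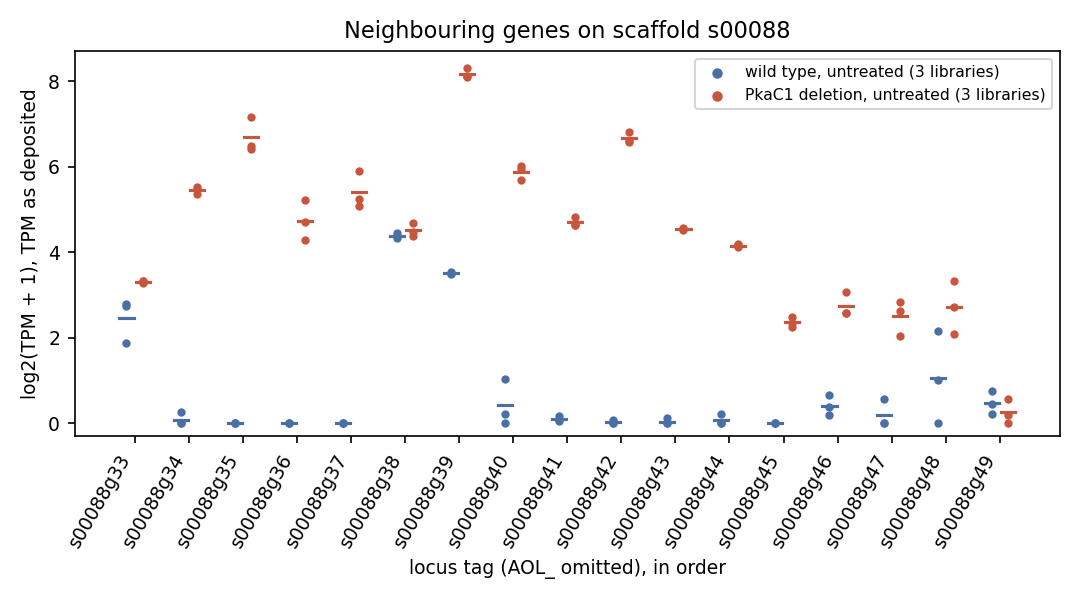
Level of 17 neighbouring genes on scaffold s00088 in each untreated library (vertical axis, log2(TPM + 1), TPM as deposited), in order of locus tag; points are libraries and short bars group means, blue for wild type and red for the deletion. From AOL_s00088g34 to AOL_s00088g47 all genes but AOL_s00088g38 separate the strains without overlap, while AOL_s00088g38, AOL_s00088g48 and AOL_s00088g49 overlap.

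Further neighbouring genes moved together. Counting runs of at least 4 consecutive locus tags all called 2-fold or more in 1 direction, 10 runs with 50 genes were higher and 10 runs with 45 genes were lower. The run AOL_s00076g527 to AOL_s00076g532 fell by 1.71 to 3.4 on the log2 scale and includes AOL_s00076g528, without annotation, at 1641, 1603 and 1591 TPM in wild type and 205.4, 210.9 and 197.1 TPM in the deletion (-3.21 ± 0.0633). AOL_s00076g527 at its end lost its call with wild type as 1 library (adjusted p = 0.128), as did AOL_s00043g803 (adjusted p = 0.0626) of the next run. The run AOL_s00043g803 to AOL_s00043g807 holds mannitol-1-phosphate dehydrogenase AOL_s00043g806, of mannitol synthesis, at 36.6, 38.3 and 43.9 TPM against 2.56, 1.23 and 0 TPM (-4.40 ± 0.333). Its neighbour, peroxiredoxin AOL_s00043g804, fell less (-1.37 ± 0.0728). In the run AOL_s00173g45 to AOL_s00173g48, of 4 genes without annotation, AOL_s00173g45 was at 274.7, 272.7 and 276.6 TPM against 1.83, 1.14 and 1.99 TPM (-6.80 ± 0.14, adjusted p = 5.25e-11). Among the runs that were higher, AOL_s00076g27 in the unannotated run AOL_s00076g25 to AOL_s00076g29 was at 9.45, 9.54 and 9.97 TPM against 148.2, 92.0 and 88.6 TPM (3.09 ± 0.139).

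The steepest increases, but not the steepest decreases, fell mostly on genes of unknown function. Of 53 genes that were 16-fold or more higher, 41 had no Swiss-Prot or Pfam annotation, and of 53 that were 16-fold or more lower 22 had none, against 2241 (25%) of all compared genes. Their median coding lengths were 891 and 828 bases, against 1284 over all compared genes. AOL_s00210g133 was at 0.7, 0.55 and 0.19 TPM in wild type and 1422, 1257 and 1180 TPM in the deletion (9.46 ± 0.159, adjusted p = 2.03e-11). Its neighbour AOL_s00210g132 was at 0.46, 0 and 0.65 TPM against 215.4, 209.9 and 193.1 TPM (6.95 ± 0.196, adjusted p = 4.01e-10). On the other side of this pair AOL_s00210g131, translation elongation factor 3, was at 1135, 1101 and 1109 TPM against 1904, 1228 and 1106 TPM and was not called (0.07 ± 0.11, adjusted p = 0.622). The pair thus changed beside a highly expressed gene that did not pass the test.

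Among annotated genes above 0 in at least 1 library of each group, without overlap and averaging at least 10 TPM in the higher group, the largest called increase was in AOL_s00081g143, with a domain of galactolipid synthases, at 0.39, 1.64 and 0.45 TPM in wild type and 186, 191.9 and 169.8 TPM in the deletion (6.41 ± 0.271). AOL_s00076g129, annotated after the bacterial nuclease RhsB, was at 1.1, 1.19 and 1.09 TPM against 142.5, 87.8 and 86.6 TPM (5.32 ± 0.162), and its unannotated neighbour AOL_s00076g128 at 17.3, 11.1 and 12.8 TPM against 1799, 1203 and 1155 TPM (6.30 ± 0.283). Both were highest in deletion library 1. Further annotated genes among the 12 largest increases under these limits were an arabinono-lactone oxidase domain protein (AOL_s00004g148, 4.33), an NmrA-like protein (AOL_s00215g876, 3.94), a phenylalanine tRNA ligase subunit (AOL_s00054g311, 3.89), a methyltransferase named after FUS9 of fusarin synthesis in Fusarium (AOL_s00078g391, 3.86) and an ankyrin repeat protein (AOL_s00109g74, 3.81). The call of AOL_s00054g311, at 0, 1.53 and 6.66 TPM against 38.6, 55.3 and 49.9 TPM, was lost with wild type as 1 library (adjusted p = 0.115) and without wild type replicate 1 or 2 or deletion replicate 2 or 3 (adjusted p = 0.0849, 0.0552, 0.058 and 0.0542).

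Large decreases outside the polyketide block included a senescence domain protein, AOL_s00110g97, at 2108, 2199 and 2026 TPM in wild type and 48.7, 121.9 and 93.5 TPM in the deletion (-4.89 ± 0.297, adjusted p = 1.09e-07). AOL_s00043g621, with an apolipoprotein domain, was at 82.9, 87.7 and 91.1 TPM against 1.32, 2.13 and 3.12 TPM (-4.93 ± 0.183). The acetylhydrolase AOL_s00078g557 was at 122.5, 121.5 and 122.7 TPM against 2.79, 6.67 and 4.45 TPM (-4.66 ± 0.221). In each of these the wild type values nearly coincide and the deletion values spread over a wider relative range. AOL_s00097g510, a putative dioxygenase, was at 76.9, 80.2 and 80.8 TPM against 5.5, 0 and 1.99 TPM (-4.98 ± 0.573), and AOL_s00043g70, named after the nuclear export factor brr6, at 56.3, 58.4 and 55.6 TPM against 5.38, 0 and 0 TPM.

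Some genes were called from a group listed at 0 throughout: 72 were at 0 in all wild type libraries and 37 in all deletion libraries. The highest of the first kind was a short-chain dehydrogenase, AOL_s00083g273, at 0 in wild type and 469.9, 257 and 279.7 TPM in the deletion, and it is listed at 0 in all 6 induced libraries as well. It therefore passed the filter only through the untreated deletion libraries. Of the second kind, the lipid phosphatase AOL_s00097g367 was at 158, 165.7 and 157.2 TPM in wild type, the senescence domain protein AOL_s00080g152 at 150.5, 157.5 and 154.8 TPM and the ribosome maturation protein AOL_s00097g296 at 64.0, 59.6 and 54.3 TPM, with all 3 listed at 0 in every deletion library. In the separately normalised Acy experiment AOL_s00083g273 averaged 210.9 ± 88.3 TPM in untreated wild type and AOL_s00097g296 124.6 ± 23.2 TPM, so neither was at 0 there. AOL_s00080g152 and AOL_s00097g296 are also listed at 0 in both induced groups and passed the filter only through the untreated wild type. Whether these zeros are absent transcripts or failed estimates was not tested.

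The wild type of the Acy experiment gives a second view of untreated wild type hyphae, although its table was normalised separately. For 15 of the 24 named genes with the largest changes its mean lay nearer to the wild type of the PkaC1 experiment than to the deletion. HOG1 (AOL_s00109g23) averaged 240 ± 54.2 TPM there and 233.3 ± 34.3 TPM in the untreated Acy deletion, and cytochrome c (AOL_s00081g186) 1136 ± 120 and 760.7 ± 43.3 TPM. The zinc transporter AOL_s00215g488 averaged 57.6 ± 3.65 TPM in that wild type and 985.6 ± 55.8 TPM in the Acy deletion. The phosphodiesterase AOL_s00097g378 averaged 83.1 ± 39.4 and 34.7 ± 3.98 TPM, with a wide spread in that wild type. These values are set side by side without a test.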

How the data were processed

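The authors deposited RNA-seq expression as TPM per gene and library; HISAT2 and StringTie are named, without versions, in the submitters' processing notes, and the genome build is not given in the sources used here. TPM have no counts, so depth is unknown. The authors' deposited table of comparisons holds, per the file headers, log2 fold changes with adjusted p-values, from a tool not given in the sources used here. Columns of group means (8) were left out. Groups and replicate numbers came from sample titles.

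Annotated genes that reached 1 TPM in 3 or more of 12 libraries were kept; 2502 annotated genes were not. Each library was scaled to the same median TPM, transformed to log2(TPM + 1), and all 4 groups were fitted with limma 3.58.1 (trend, empirical Bayes) in R 4.3.3, with Benjamini-Hochberg adjustment over 8977 genes; a call is an adjusted p under 0.05. The 1 estimate of spread per gene thus draws on all 4 groups. At the filter's edge, 272 tested genes had 1 TPM or more in exactly 3 libraries (median highest level 3.27 TPM) and 176 untested ones in exactly 2 (1.81 TPM). The fit was tested on simulated data with known changes. All 11479 names matched a RefSeq locus tag (assembly AOL24927 1.0), used for names and gene order only. The motif search planned for promoters was not made.

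Lists were matched by words in the annotation, so a list can hold genes that share only a word with it and can miss others. Named genes are the cAMP-PKA genes; the 12 largest annotated, called increases and decreases without overlap, above 0 in at least 1 library of each group, whose higher group averaged at least 10 TPM; up to 2 per direction from each list; the polyketide block; the 5 highest genes per direction listed at 0 in the other group; and members of the 3 longest runs per direction. Not all are printed. Members and lists were chosen with earlier results of these data known. Replicate numbers did not pair libraries: deviations of same-numbered untreated libraries correlated at -0.018, 0.009 and 0.06. Alternatives were deposited TPM without scaling, other pseudocounts and filters, a replicate block, robust variances, only the untreated libraries, assembled loci kept, each wild type group as 1 library, and each library left out.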

Additional observations from a re-analysis of the deposited data

Results flagged for a closer look

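The effect of the deletion differed between untreated hyphae and hyphae induced for 12 h in 25 of the 31 annotated genes tested, as the difference of both effects in the same limma fit, and in 9 of the 25 the effects had opposite signs. Over all 8977 compared genes the difference passed in 63.9%, and in 39.1% it passed with opposite signs. Of the 31, 24 were chosen for the size of their untreated change, which favours a larger effect untreated, so the count is a description. Values are the untreated minus the induced log2 effect, all at an interaction adjusted p under 0.05 over all compared genes.

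Larger increases without treatment were found for the NmrA-like protein AOL_s00215g876 (7.53), whose effect was 3.94 untreated and -3.59 induced, the zinc finger gene AOL_s00088g42 (5.84), the RhsB-like gene AOL_s00076g129 (5.10), the aspartic protease AOL_s00007g136 (4.53), AOL_s00081g143 (4.03), tyrosinase AOL_s00215g501 (3.66), the ankyrin protein AOL_s00109g74 (3.52) and the lactone oxidase AOL_s00004g148 (3.44). Smaller differences of that kind were seen for the WSC protein AOL_s00080g412 (1.77), the methyltransferase AOL_s00078g391 (1.36) and the zinc transporter AOL_s00215g488 (0.71). Adenylate cyclase AOL_s00080g284 (0.60) and its associated protein AOL_s00109g42 (0.33) were higher than wild type untreated and lower induced.

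Larger decreases without treatment were found for AOL_s00043g621 (-7.10), with effects of -4.93 untreated and 2.17 induced, the dioxygenase AOL_s00097g510 (-6.01), the senescence domain protein AOL_s00110g97 (-5.40), the acetylhydrolase AOL_s00078g557 (-4.85) and the phosphodiesterase AOL_s00097g378 (-2.55). The phosphodiesterase AOL_s00083g160 (-1.14) and the kinase AOL_s00078g405 (-0.78) also differed, and both were lower than wild type untreated and higher induced. Their effects were -0.86 and 0.28 for the phosphodiesterase and -0.39 and 0.40 for the kinase. In the polyketide block the fall was larger after induction for AOL_s00215g276 (1.39), AOL_s00215g281 (1.12) and AOL_s00215g280 (1.04), and smaller for AOL_s00215g279 (-1.0) and AOL_s00215g283 (-0.37).

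Assembled loci without a gene name, which the comparison of annotated genes does not use, also differed between the strains. Of 827 such loci tested, 193 were called at 2-fold or more, 85 higher and 108 lower in the deletion.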

How the results depend on the processing

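Of 5636 calls, counts stayed within 1.5 times in total and in each direction under every alternative fixed for them but 1: with each wild type group as 1 library, 3195 genes were called, 1406 higher and 1789 lower, because the spread then comes from the deletion libraries and fewer degrees of freedom. That setting left 823 genes 2-fold or more higher and 954 lower. Scaling moved the balance, with 3652 higher and 2155 lower on deposited TPM. Leaving out each untreated library in turn gave 5103 to 5547 calls, 2393 to 2640 higher and 2710 to 2918 lower. The numbers did not pair the libraries, and with the replicate block 5581 genes were called. Of 227 named genes 25 lost their call with each wild type group as 1 library and 4 on deposited TPM. Signs turned in genes that were not called: AOL_s00215g278 and AOL_s00088g38 on deposited TPM (0.12 and 0.12), and, over the libraries left out in turn, AOL_s00215g278 (-0.30 to 0.17), AOL_s00088g38 (-0.21 to 0.04) and AOL_s00210g131 (-0.09 to 0.16), each turning without deletion replicate 1; the cause was not tested. TPM without counts set no limit for low genes, and an exact 0 may be a failed estimate.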
